A study of Mus musculus with 6 samples.

Results

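Matrix metalloproteinases (MMPs), the ADAMTS proteases, the ADAMTS-like proteins and the tissue inhibitors of metalloproteinases (TIMPs) were examined in injured mouse femoral arteries. Members were matched by gene symbol, with the family chosen when earlier results of these data were known. This gave 49 of the 18476 genes in the deposited table: 21 MMPs, 19 ADAMTS proteases, 5 ADAMTS-like proteins and 4 TIMPs. The arteries came from wild-type C57BL/6 mice 3 days after wire injury of the vessel. All 6 arteries had been injured, and they had then been treated around the outside with saline (3 libraries) or with vasostatin-2 (3 libraries), a fragment of chromogranin A. Age, sex and dose were not stated in the labels, all 6 libraries carry 1 batch label, and the libraries within each group are biological replicates per the series design. An uninjured artery was not analysed here. The comparison addressed which genes differ between treated and control arteries at this early time, in a study of neointima formation after injury.

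MMPs are zinc-dependent enzymes that are made as inactive precursors and cut collagens, elastin, basement membrane and cell-surface proteins once activated. Most are secreted, while the membrane-type MMPs stay on the cell surface, where Mmp14 together with Timp2 brings precursor Mmp2 to be activated. ADAMTS proteases carry thrombospondin repeats and cut large proteoglycans such as versican, trim procollagens or act on microfibril proteins. ADAMTS-like proteins resemble them but lack the protease domain, and TIMPs bind and block the active enzymes. In an injured artery the active proteases let smooth muscle cells and leukocytes move through the elastic layers and the matrix.

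Total estimated counts lay between 19333730 and 20105995 per library, so depth was nearly equal. The labels name vascular smooth muscle cells, but the RNA came from whole arteries. Summed over 8 genes each, contractile smooth muscle markers were at 921 to 2296 CPM (counts scaled to library size, not gene length) in the 6 libraries, monocyte and macrophage markers at 6766 to 9902 CPM and fibroblast markers at 24640 to 45510 CPM. Red cell markers reached 12350 CPM in saline replicate 2 and lay between 310.2 and 2502 CPM in the other libraries. Schwann cell markers were at 594 CPM in saline replicate 3 against 54.5 to 91.4 CPM elsewhere. Skeletal muscle markers were at 1088 CPM in vasostatin-2 replicate 3 against 67.2 to 118 CPM elsewhere. In such bulk samples fewer cells of a type and less RNA per cell cannot be told apart. Levels below are the authors' TPM (transcript abundance scaled for gene length and library size), always listed in the order of replicates 1, 2 and 3. Log2 fold changes are vasostatin-2 against saline, with their standard error (SE), from edgeR's quasi-likelihood test on the counts with Benjamini-Hochberg adjustment over all 14557 genes that passed a low-count filter.

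Of the 49 members, 44 passed that filter. Mmp7, Mmp10, Mmp20, Mmp21 and Adamts13 did not, and each stayed under 1 TPM in every library. Mmp20 and Mmp21, the enamel protease and an embryonic MMP, had at most 1 estimated count in any library. The levels of the others spanned a wide range. By mean TPM over the 6 libraries, 7 members were at 100 or more, 18 between 10 and 100, 17 between 1 and 10 and 7 under 1. The leading members were Timp1 (602.8 TPM), Timp2 (445 TPM), Mmp2 (396 TPM) and Mmp14 (339 TPM). Together these 4 genes held between 53.8% and 66.4% of the summed TPM of the family.

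**Figure D1:**
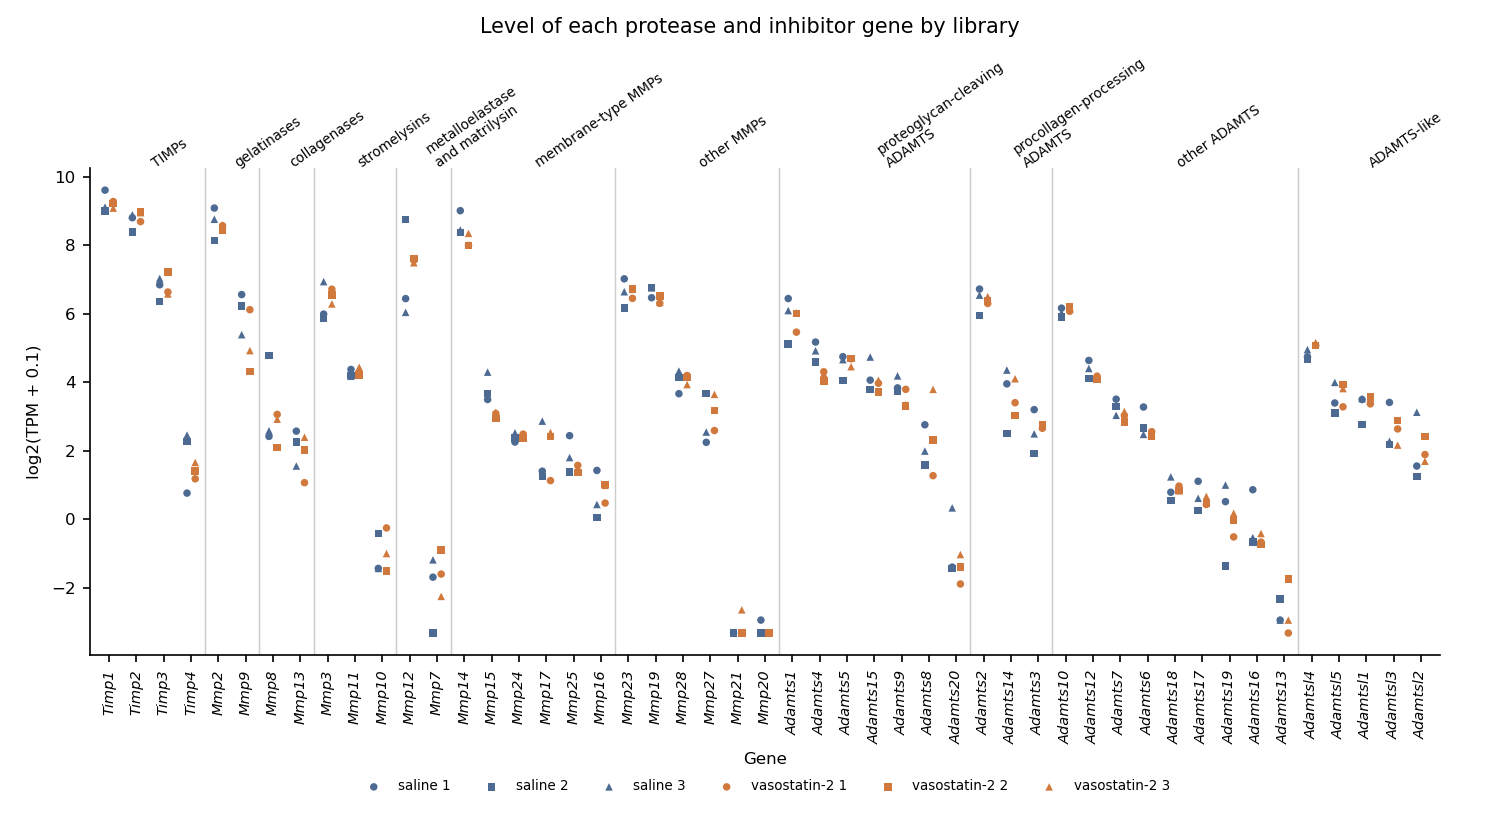
Level of all 49 members in each library, as log2(TPM + 0.1), grouped by role and ordered within a group by mean TPM; blue symbols are saline, orange symbols vasostatin-2, and the shape gives the replicate. Timp1, Timp2, Mmp2 and Mmp14 stand highest, while Mmp20 and Mmp21 lie at the bottom of the scale.

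No member passed the adjusted threshold of 0.05 between treatments. edgeR called 0 of 14557 genes (0%), and the lowest adjusted p of a member was 0.458, for Adamts4. DESeq2, run on the same genes as an alternative, called 106 of the 14538 genes with a defined adjusted p (0.729%), among them Adamts4 and Mmp15. At an unadjusted p of 0.05, edgeR gave 4 members lower with vasostatin-2, Adamts4, Mmp15, Mmp14 and Adamts9, where 3.85% of all genes tested were that low. It gave 1 member higher, Adamtsl4, where the share over all genes was 3.29%. The 5 members are 11.4% of the 44 tested, which is a description of a list chosen with earlier results known. Saline and treated values were fully separated in 3 members that were lower (Adamts4, Mmp14 and Mmp15; 6.72% of all genes tested) and in 1 that was higher (Adamtsl4; 6.07% of all genes tested). Of the 44 members, 27 had a negative and 17 a positive log2 fold change, with a median of −0.12 beside −0.00068 over all genes tested. The family median turned to 0.021 when saline replicate 3 was left out.

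**Figure D2:**
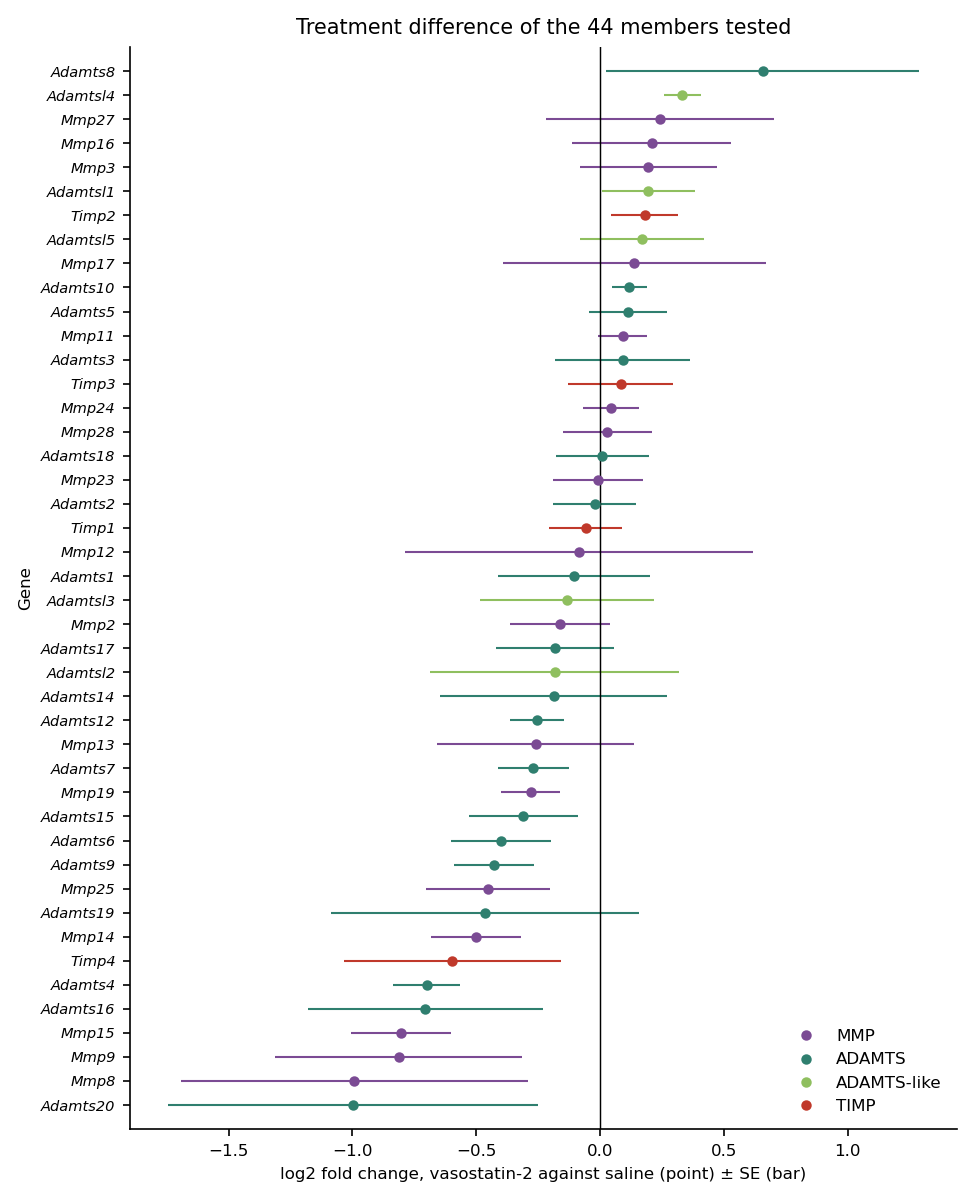
Log2 fold change (point) and SE (bar) of the 44 members tested, vasostatin-2 against saline, ordered by size and coloured by type. Mmp8 (−0.99, SE 0.70) and Adamts20 (−0.998, SE 0.748) have wide bars, whereas Adamts4 (−0.70, SE 0.13) and Adamtsl4 (0.33, SE 0.075) have narrow ones.

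TIMPs, the inhibitors, kept the same order in every library, with Timp1 above Timp2, Timp2 above Timp3 and Timp3 above Timp4. Timp1, a secreted inhibitor that is strongly induced in wounded tissue, was at 783, 514 and 556 TPM with saline and at 623, 597 and 544 TPM with vasostatin-2. The treated libraries lay inside the range of the saline libraries (log2 fold change −0.058, SE 0.15, adjusted p = 0.952). Timp2 was at 448, 336 and 475 TPM with saline and at 414, 502 and 497 TPM with vasostatin-2. Its groups overlapped, and its log2 fold change was 0.18 (SE 0.14, adjusted p = 0.818), or 0.074 without saline replicate 2. Timp3, which binds to the matrix and also inhibits ADAMTS proteases, was at 115, 82.0 and 131 TPM against 99.5, 149 and 95.7 TPM, with a log2 fold change of 0.084 (SE 0.21, adjusted p = 0.952). Timp4, best known from heart and fat, was at 1.6, 4.73 and 5.40 TPM against 2.17, 2.55 and 3.06 TPM. Its log2 fold change was −0.60 (SE 0.44, adjusted p = 0.815), and the saline libraries alone spanned more than the difference. It was −0.98 without saline replicate 1 and −0.33 without saline replicate 3. Adipocyte markers, summed over 5 genes, were lowest in saline replicate 1 as well, at 2066 CPM against 3144 to 4718 CPM in the other 5 libraries; their part in the Timp4 values was not tested.

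Membrane-type MMPs held 2 of the 5 members under the unadjusted threshold. Mmp14, which degrades fibrillar collagen at the cell surface and activates Mmp2, was at 517, 332 and 350 TPM with saline and at 256, 256 and 326 TPM with vasostatin-2. Each treated library was below each saline library, but vasostatin-2 replicate 3 and saline replicate 2 were close. The means were 399 ± 102 and 280 ± 40.6 TPM (SD, n = 3 each), and the log2 fold change was −0.50 (SE 0.18; unadjusted p = 0.0291, adjusted p = 0.681 by edgeR). It was −0.30 without saline replicate 1, the highest library. When each library was left out in turn, the unadjusted p was under 0.05 in 3 of 6 fits and at most 0.0958. Mmp15, a close relative of Mmp14, was at 11.2, 12.6 and 19.6 TPM with saline and at 8.41, 7.63 and 8.63 TPM with vasostatin-2. The treated libraries lay close together and below all saline libraries, and saline replicate 3 stood highest. Means were 14.5 ± 4.48 and 8.22 ± 0.526 TPM (SD, n = 3 each), with a log2 fold change of −0.80 (SE 0.20; unadjusted p = 0.00594, adjusted p = 0.558 by edgeR). DESeq2 with Benjamini-Hochberg adjustment gave Mmp15 an adjusted p of 0.0458, and its edgeR log2 fold change without saline replicate 3 was −0.55. The authors' deposited table gives a q-value of 0.0589 for Mmp15 and 0.372 for Mmp14.

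The other membrane-type members showed no such separation. Mmp24, an MMP best known from the nervous system, was at 4.68, 5.08 and 5.66 TPM with saline and at 5.51, 5.07 and 5.25 TPM with vasostatin-2, the smallest SE of its class (log2 fold change 0.044, SE 0.11, adjusted p = 0.953). Mmp25, a leukocyte membrane-type MMP, was at 5.34, 2.51 and 3.39 TPM against 2.88, 2.47 and 2.74 TPM. Its log2 fold change of −0.45 (SE 0.25, adjusted p = 0.747) was −0.15 without saline replicate 1. Mmp17 ranged from 2.09 to 7.20 TPM and Mmp16 from 0.94 to 2.59 TPM over the 6 libraries, with overlapping groups.

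Proteoglycan-cleaving ADAMTS proteases included the member with the smallest p. Adamts4, which cuts the large proteoglycans aggrecan and versican, was at 36.1, 24.0 and 30.2 TPM with saline and at 19.7, 16.3 and 19.0 TPM with vasostatin-2. All 3 treated libraries lay below all 3 saline libraries. The means were 30.1 ± 6.06 and 18.3 ± 1.82 TPM (SD, n = 3 each), with a log2 fold change of −0.70 (SE 0.13; unadjusted p = 0.00132, adjusted p = 0.458 by edgeR). DESeq2 with Benjamini-Hochberg adjustment gave an adjusted p of 0.00284. In the authors' deposited table Adamts4 has a log2 fold change of −0.70 and a q-value of 0.00334, the only member below a q-value of 0.05, where 98 of 18401 genes (0.533%) were. When each library was left out in turn, the edgeR log2 fold change stayed between −0.81 and −0.57 and the unadjusted p between 2.40e-04 and 0.00583. Adamts4 lies on chromosome 1 from 171250129 to 171262267 (GRCm38.p6, deposited coordinates).

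Adamts9, a versican-cleaving protease, was at 14.2, 13.4 and 18.1 TPM with saline and at 13.8, 9.84 and 10.1 TPM with vasostatin-2. The groups overlapped, since vasostatin-2 replicate 1 lay above saline replicate 2. Its log2 fold change was −0.43 (SE 0.16, unadjusted p = 0.0349, adjusted p = 0.681 by edgeR). When each library was left out in turn, the unadjusted edgeR p was under 0.05 in 3 of 6 fits. That p was highest, at 0.107, without vasostatin-2 replicate 2. Adamts1, the most abundant protease of this class, was at 87.2, 34.8 and 68.3 TPM against 44.1, 64.4 and 65.2 TPM, with a log2 fold change of −0.11 (SE 0.31, adjusted p = 0.958). Adamts5, the main aggrecan-cleaving partner of Adamts4, was at 26.8, 16.6 and 25.2 TPM against 25.7, 25.8 and 21.9 TPM, a log2 fold change of 0.11 (SE 0.16, adjusted p = 0.909). Adamts4 and Adamts5 were thus present at like levels, with Adamts4 above Adamts5 in the 3 saline libraries and below it in the 3 vasostatin-2 libraries. That order was noticed after the values were seen and was not tested. Adamts15 lay between 13.1 and 26.6 TPM, Adamts8 between 2.32 and 13.8 TPM and Adamts20 between 0.17 and 1.16 TPM, each with overlapping groups. Adamts8 was highest in vasostatin-2 replicate 3 and Adamts20 in saline replicate 3, the libraries that stood apart in skeletal muscle and Schwann cell markers; the part of those markers in these values was not tested.

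Of the 5 ADAMTS-like proteins, 3 had a positive log2 fold change and 0 passed the adjusted threshold, with 1, Adamtsl4, under an unadjusted p of 0.05. Adamtsl4, which binds fibrillin microfibrils, was at 26.8, 25.3 and 30.9 TPM with saline and at 33.7, 33.7 and 35.7 TPM with vasostatin-2. All treated libraries lay above all saline libraries. The means were 27.7 ± 2.90 and 34.3 ± 1.14 TPM (SD, n = 3 each), with a log2 fold change of 0.33 (SE 0.075; unadjusted p = 0.0032, adjusted p = 0.476 by edgeR). It stayed between 0.29 and 0.39 when each library was left out in turn, with an unadjusted p of at most 0.0144. DESeq2 gave an adjusted p of 0.0908, and the q-value in the authors' deposited table is 0.102. Adamtsl5 was at 10.4, 8.50 and 15.9 TPM against 9.65, 15.2 and 14.0 TPM (log2 fold change 0.17, SE 0.25, adjusted p = 0.916), and its log2 fold change was 0.018 without saline replicate 2 and 0.44 without saline replicate 3. Adamtsl1, a secreted matrix glycoprotein, was at 11.2, 6.74 and 11.4 TPM against 10.3, 11.8 and 11.4 TPM (log2 fold change 0.19, SE 0.19, adjusted p = 0.865). Adamtsl3 ranged from 4.39 to 10.6 TPM and Adamtsl2 from 2.27 to 8.63 TPM, the latter highest in saline replicate 3.

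**Figure D3:**
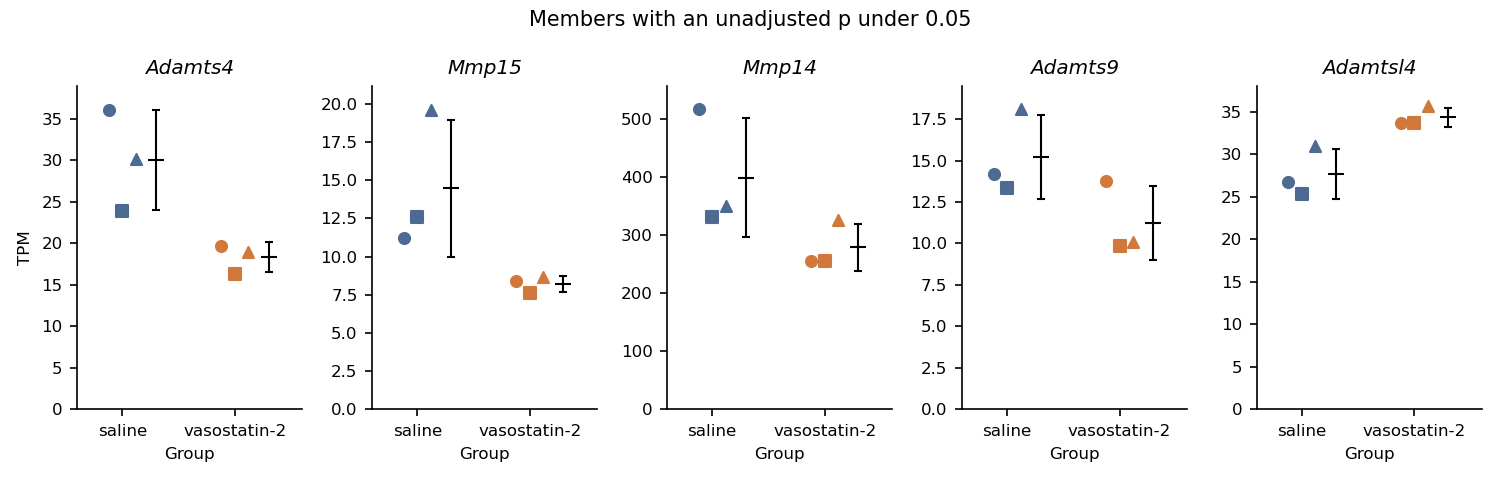
TPM of the 5 members with an unadjusted p under 0.05, one symbol shape per replicate, with the group mean and SD as a black bar; each axis starts at 0. The groups do not overlap for Adamts4, Mmp15, Mmp14 and Adamtsl4, whereas for Adamts9 vasostatin-2 replicate 1 lies among the saline libraries.

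The regions just before the transcription starts of Mmp14, Mmp15, Adamts9 and Adamtsl4 are shown because these members had an unadjusted p under 0.05; Adamts4 is not among them. RefSeq promoter entries (GRCm38.p6) matched 34 of the 49 members. For each gene the 250 bases before the annotated start were searched on both strands for the GC box (GGGCGG, bound by Sp1-type factors), the AP-1 site (TGANTCA, bound by Fos and Jun) and the TATA box (TATAAA), and no match shared a base with another motif. Below, matches are in capitals and all other bases in lower case, 5′ to 3′ on the strand of the gene. The windows are chr14:54431348-54431597 (plus strand) for Mmp14, chr8:95352046-95352295 (plus strand) for Mmp15, chr6:92943535-92943784 (minus strand) for Adamts9 and chr3:95687918-95688167 (minus strand) for Adamtsl4.
Mmp14: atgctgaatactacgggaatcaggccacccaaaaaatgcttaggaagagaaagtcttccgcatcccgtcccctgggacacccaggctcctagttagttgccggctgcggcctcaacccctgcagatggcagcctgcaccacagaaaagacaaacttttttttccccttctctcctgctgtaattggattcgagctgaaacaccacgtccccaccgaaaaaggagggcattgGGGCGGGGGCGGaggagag
Mmp15: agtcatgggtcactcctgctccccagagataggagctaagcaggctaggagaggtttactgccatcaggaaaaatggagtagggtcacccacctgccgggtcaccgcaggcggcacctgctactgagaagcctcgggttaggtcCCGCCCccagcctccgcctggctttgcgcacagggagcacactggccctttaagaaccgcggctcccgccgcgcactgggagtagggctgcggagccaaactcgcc
Adamts9: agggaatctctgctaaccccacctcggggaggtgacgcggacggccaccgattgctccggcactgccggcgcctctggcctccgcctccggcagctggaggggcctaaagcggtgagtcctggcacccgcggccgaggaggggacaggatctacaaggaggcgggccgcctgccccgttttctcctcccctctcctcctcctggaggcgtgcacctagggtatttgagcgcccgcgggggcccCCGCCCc
Adamtsl4: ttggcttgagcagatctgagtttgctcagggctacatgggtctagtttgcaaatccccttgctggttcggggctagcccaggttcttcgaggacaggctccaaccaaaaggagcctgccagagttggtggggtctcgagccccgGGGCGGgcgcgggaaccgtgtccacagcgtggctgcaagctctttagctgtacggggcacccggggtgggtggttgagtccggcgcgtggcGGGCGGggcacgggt

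All 4 windows hold a GC box, 2 each in Mmp14 and Adamtsl4 and 1 each in Mmp15 and Adamts9, and they hold no AP-1 or TATA match of these letters. GC boxes were present in 20 of the 34 members matched and in 33% of the 27025 genes with an entry, so the match is common.

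Procollagen-processing ADAMTS proteases, which trim the amino ends of fibrillar procollagens, showed no difference past the adjusted threshold. Adamts2 was at 106, 62.0 and 93.4 TPM with saline and at 79.0, 83.2 and 90.6 TPM with vasostatin-2 (log2 fold change −0.022, SE 0.17, adjusted p = 0.988). Adamts14 was at 15.4, 5.57 and 20.4 TPM against 10.5, 8.07 and 17.1 TPM (log2 fold change −0.19, SE 0.46, adjusted p = 0.951). Adamts3 was at 9.11, 3.68 and 5.54 TPM against 6.21, 6.71 and 6.52 TPM (log2 fold change 0.091, SE 0.27, adjusted p = 0.961). All 3 were lowest in saline replicate 2, and their groups overlapped.

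Among the other ADAMTS proteases, 6 of the 8 tested had a negative log2 fold change and 0 were under the unadjusted threshold. Adamts10, which acts on fibrillin microfibrils, was the most abundant, at 71.8, 59.7 and 65.1 TPM with saline and at 67.4, 74.1 and 70.8 TPM with vasostatin-2 (log2 fold change 0.12, SE 0.071, adjusted p = 0.765). Adamts12 and Adamts7 both cut cartilage oligomeric matrix protein, which in arteries helps keep smooth muscle cells contractile. Adamts12 was at 24.8, 17.2 and 21.1 TPM against 18.1, 16.8 and 17.6 TPM (log2 fold change −0.25, SE 0.11; unadjusted p = 0.0521, adjusted p = 0.705 by edgeR). Adamts7 was at 11.3, 9.68 and 8.11 TPM against 8.07, 7.04 and 8.76 TPM (log2 fold change −0.27, SE 0.14, adjusted p = 0.738). Adamts6 was at 9.61, 6.23 and 5.48 TPM against 5.79, 5.26 and 5.45 TPM, with a log2 fold change of −0.40 (SE 0.20, adjusted p = 0.728) that was −0.14 without saline replicate 1. In these 3 genes saline replicate 1 was the highest library, and without it the log2 fold changes of Adamts12 and Adamts7 were −0.14 and −0.17. Adamts16, Adamts17, Adamts18 and Adamts19 lay between 0.29 and 2.26 TPM, and the groups overlapped in each.

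The gelatinases, which cut denatured collagen and basement membrane collagen, were far apart in level. Mmp2, made mainly by mesenchymal cells, was at 545, 283 and 435 TPM with saline and at 381, 345 and 387 TPM with vasostatin-2. The treated libraries lay within the saline range (log2 fold change −0.16, SE 0.20, adjusted p = 0.902). Mmp9, which neutrophils carry in their granules and macrophages also make, was at 94.5, 74.7 and 41.9 TPM with saline and at 69.6, 19.8 and 30.3 TPM with vasostatin-2. Its log2 fold change was −0.81 (SE 0.50, adjusted p = 0.767), and vasostatin-2 replicate 1 lay among the saline libraries; the log2 fold change was −1.49 without that library and −0.49 without vasostatin-2 replicate 2. Neutrophil markers, summed over 10 genes, were at 422, 452 and 288 CPM with saline and at 319, 163 and 214 CPM with vasostatin-2, with all 8 tested markers lower. Vasostatin-2 replicates 2 and 3 were the lowest libraries for both Mmp9 and the neutrophil sum. Csf3r was at 129 to 265 CPM over all libraries, while the defining markers Ly6g and Camp stayed under 1 CPM and each was at 0 in a library. The part of neutrophil content in the Mmp9 values was not tested.

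Mmp8, the neutrophil collagenase, was at 5.26, 27.5 and 5.90 TPM with saline and at 8.26, 4.20 and 7.49 TPM with vasostatin-2. Saline replicate 2 stood alone, and its removal took the log2 fold change from −0.99 (SE 0.70, adjusted p = 0.809) to 0.30. Mmp12, the macrophage metalloelastase, was at 87.1, 431 and 65.9 TPM with saline and at 189, 196 and 180 TPM with vasostatin-2. The 3 treated libraries were nearly equal and lay between saline replicate 2 and the other saline libraries. Its log2 fold change was −0.085 (SE 0.70, adjusted p = 0.989), and without saline replicate 2 it was 1.34 (unadjusted p = 2.93e-05, adjusted p = 0.101 by edgeR). The summed monocyte and macrophage markers were also highest in saline replicate 2 and lowest in the other saline libraries. The sums were 6766, 9902 and 7095 CPM with saline and 8621, 9120 and 8656 CPM with vasostatin-2, with Lyz2 the largest part. By gene, Cd68, Lyz2 and, narrowly, Csf1r were highest in saline replicate 2. Adgre1, C1qa, C1qb and C1qc were each highest in a vasostatin-2 library, and Mrc1 was highest in saline replicate 3. Red cell markers were at 1837, 12350 and 2502 CPM with saline and at 2360, 380.0 and 310.2 CPM with vasostatin-2, so saline replicate 2 was highest there too. The neutrophil marker sum was 422, 452 and 288 CPM with saline, so saline replicate 2 was highest there only narrowly. The part of any of these cell types in the Mmp8 and Mmp12 values was not tested. Mmp13, collagenase-3, was at 5.86, 4.69 and 2.84 TPM against 2.0, 3.96 and 5.17 TPM, with a log2 fold change of −0.26 (SE 0.40, adjusted p = 0.919).

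**Figure D4:**
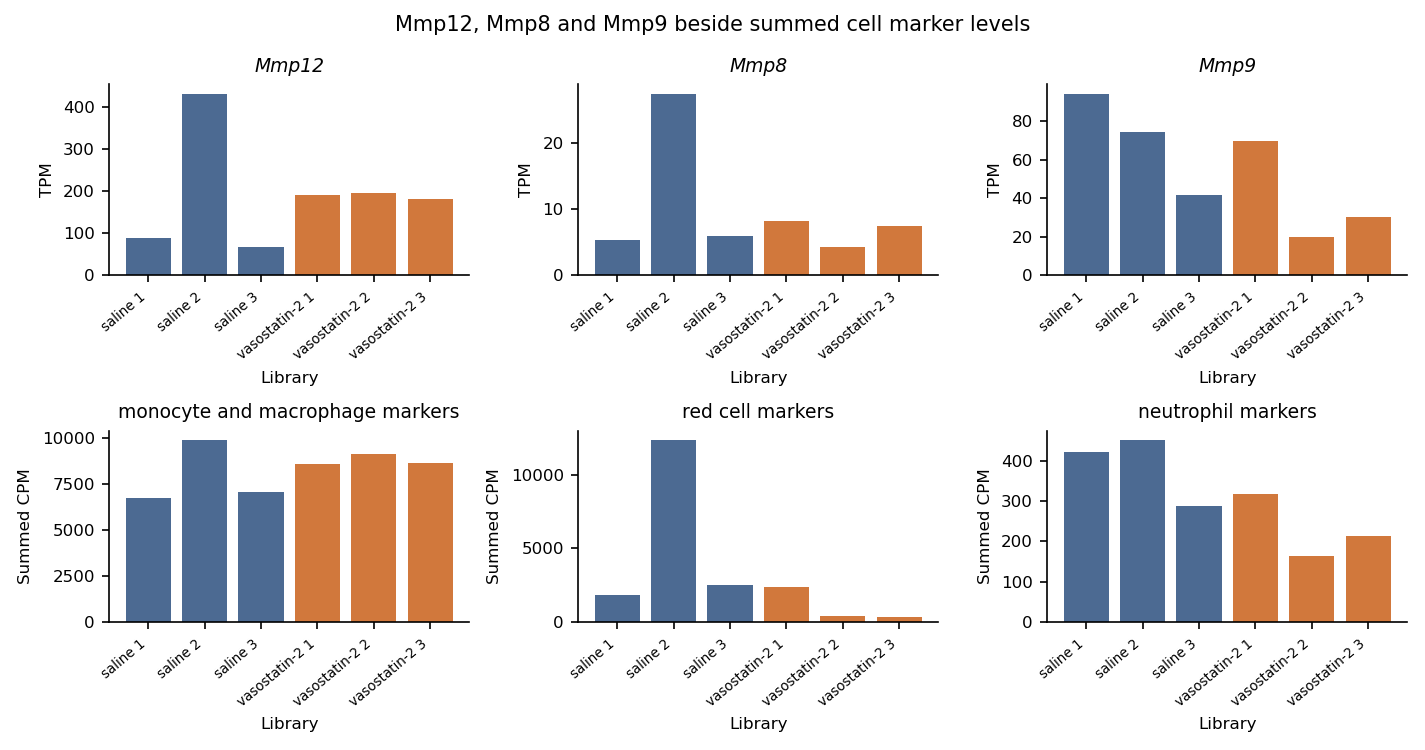
Upper row, TPM of Mmp12, Mmp8 and Mmp9 by library; lower row, CPM summed over monocyte and macrophage, red cell and neutrophil markers in the same libraries (blue saline, orange vasostatin-2). Saline replicate 2 is the highest library for Mmp12 (431 TPM), Mmp8 (27.5 TPM) and red cell markers (12350 CPM), and vasostatin-2 replicates 2 and 3 are the lowest for Mmp9 and neutrophil markers.

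The stromelysins, which cut proteoglycans and non-collagen matrix proteins, showed no difference past the threshold. Mmp3 was at 63.7, 58.5 and 123 TPM with saline and at 105, 93.7 and 78.2 TPM with vasostatin-2 (log2 fold change 0.19, SE 0.28, adjusted p = 0.911), and the log2 fold change was 0.59 without saline replicate 3, 0.033 without saline replicate 1 and 0.032 without saline replicate 2. Mmp11 was at 20.7, 18.3 and 18.0 TPM against 18.9, 18.4 and 21.6 TPM (log2 fold change 0.092, SE 0.098, adjusted p = 0.879). Mmp10, which did not pass the low-count filter, lay between 0.25 and 0.74 TPM. Of the remaining MMPs, Mmp23, a membrane-anchored MMP, was at 130.0, 72.0 and 100.1 TPM with saline and at 87.6, 105 and 105 TPM with vasostatin-2 (log2 fold change −0.0091, SE 0.18, adjusted p = 0.998). Mmp19, a secreted MMP that cuts basement membrane proteins, was at 88.6, 109 and 108 TPM against 79.2, 91.6 and 80.7 TPM, where vasostatin-2 replicate 2 exceeded saline replicate 1. Its log2 fold change was −0.28 (SE 0.12; unadjusted p = 0.0525, adjusted p = 0.706 by edgeR). In GENCODE M21, an annotation of the same genome version, 789 of the 3533 exonic bases of Mmp19 are shared with Tmem198b, which lay between 31.2 and 44.1 TPM. The labels do not state strandedness, so reads from the shared bases could not be separated. Mmp28, epilysin, was at 12.6, 17.6 and 20 TPM against 18.3, 17.5 and 15.2 TPM (log2 fold change 0.030, SE 0.18, adjusted p = 0.984). Mmp27 ranged from 4.65 to 12.7 TPM with overlapping groups.

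In the deposited coordinates 8 MMP genes lie side by side on chromosome 9, between 7272514 (the start of Mmp13) and 7699585 (the end of Mmp7), in the order Mmp13, Mmp12, Mmp3, Mmp10, Mmp8, Mmp27, Mmp20 and Mmp7. The 5 of them that were tested did not share a pattern over libraries. Mmp12, Mmp8 and, narrowly, Mmp27 (12.67 TPM against 12.45 TPM in vasostatin-2 replicate 3) were highest in saline replicate 2. Mmp3 was lowest there, close to saline replicate 1, and Mmp13 was highest in saline replicate 1. Promoter windows of the cluster differed in composition from those of the other members. Their GC content was 37.2% to 45.6% (8 genes, median 39.4%) against 53.6% to 80.0% in the other 26 members matched (median 64.8%), with a median of 52% over all 27025 genes. Windows of Mmp3 (chr9:7445572-7445821 (plus strand)), Mmp13 (chr9:7272264-7272513 (plus strand)) and Mmp12 (chr9:7344147-7344396 (plus strand)) are printed with the same marking, to set the AT-rich cluster beside the GC-rich windows above.
Mmp3: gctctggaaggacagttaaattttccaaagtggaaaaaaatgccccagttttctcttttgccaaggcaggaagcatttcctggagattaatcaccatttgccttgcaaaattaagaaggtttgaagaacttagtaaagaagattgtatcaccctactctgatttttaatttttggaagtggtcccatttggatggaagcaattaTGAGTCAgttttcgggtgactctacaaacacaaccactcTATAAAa
Mmp13: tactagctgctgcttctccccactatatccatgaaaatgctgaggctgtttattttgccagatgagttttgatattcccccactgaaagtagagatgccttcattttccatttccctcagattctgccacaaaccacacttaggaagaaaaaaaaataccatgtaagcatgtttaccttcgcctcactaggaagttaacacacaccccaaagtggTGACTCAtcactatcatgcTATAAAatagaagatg
Mmp12: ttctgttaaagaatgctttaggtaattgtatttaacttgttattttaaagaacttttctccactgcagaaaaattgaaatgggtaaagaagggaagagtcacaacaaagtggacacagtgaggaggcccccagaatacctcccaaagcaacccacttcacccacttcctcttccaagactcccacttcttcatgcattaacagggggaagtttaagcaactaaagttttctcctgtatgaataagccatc

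The AP-1 site in Mmp3 begins at position −46 and that in Mmp13 at −35, counted back from −1 at the base before the annotated start, and a TATA box follows in each, at −7 and −16. An AP-1 match was present in 5 of the 8 cluster genes (Mmp3, Mmp7, Mmp10, Mmp13 and Mmp20), in 0 of the 26 other members and in 6.85% of all genes. A TATA box was present in 5 of the 8, in 3 of the 26 and in 13% of all genes, while the GC box was present in 0 of the 8 and 20 of the 26. Mmp12, whose saline libraries ranged from 65.9 to 431 TPM, had no match to any of the 3 motifs in this window. The genes with an AP-1 match included Mmp20 and Mmp7, which were near 0 in these arteries, and Mmp3, which was at 58.5 TPM or more in every library. A match of letters is a description of the sequence and does not show that a factor was bound.

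Summed by type, MMPs were at 1602, 1464 and 1313 TPM with saline and at 1243, 1183 and 1275 TPM with vasostatin-2, so the treated sums lay below the saline sums. Mmp14, whose treated libraries all lay below its saline libraries, is part of this sum. Mmp14 was at 350 TPM in saline replicate 3 and at 256 TPM in vasostatin-2 replicate 1. That gap is wider than the gap between the MMP sums of these libraries, 1313 and 1243 TPM. Without Mmp14 the groups of the MMP sum would therefore overlap, so the separation is not shown for the other MMPs. TIMPs summed to 1348, 937 and 1167 TPM against 1139, 1249 and 1139 TPM, with overlap. The ADAMTS sum was 442, 273 and 399 TPM against 321, 340.3 and 369 TPM, and the ADAMTS-like sum 61.8, 47.3 and 71.6 TPM against 63.3, 73.1 and 68.6 TPM. The ratio of the MMP sum to the TIMP sum was 1.19, 1.56 and 1.13 with saline and 1.09, 0.947 and 1.12 with vasostatin-2. Without Mmp12, which ranged from 65.9 to 431 TPM with saline, it was 1.12, 1.10 and 1.07 against 0.925, 0.790 and 0.961. With Mmp12 the groups nearly met, at 1.125 in saline replicate 3 and 1.119 in vasostatin-2 replicate 3. Mmp14 is part of both ratios, so neither is independent of it. The ratio of Mmp14 to Timp2, the pair that handles precursor Mmp2, was 1.15, 0.988 and 0.735 with saline and 0.618, 0.510 and 0.657 with vasostatin-2. Its groups did not overlap, but neither did those of Mmp14 alone, so the ratio is no separate result. The ratio of Mmp2 to Timp2 was 1.22, 0.842 and 0.914 against 0.920, 0.688 and 0.780, with overlap. That of Adamts4 to Timp3 was 0.313, 0.292 and 0.231 against 0.198, 0.109 and 0.199, where Adamts4 alone was also separated. These sums and ratios were formed after the single values were known, and no test was run on them. They concern transcripts and not enzyme activity, which was not measured.

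**Figure D5:**
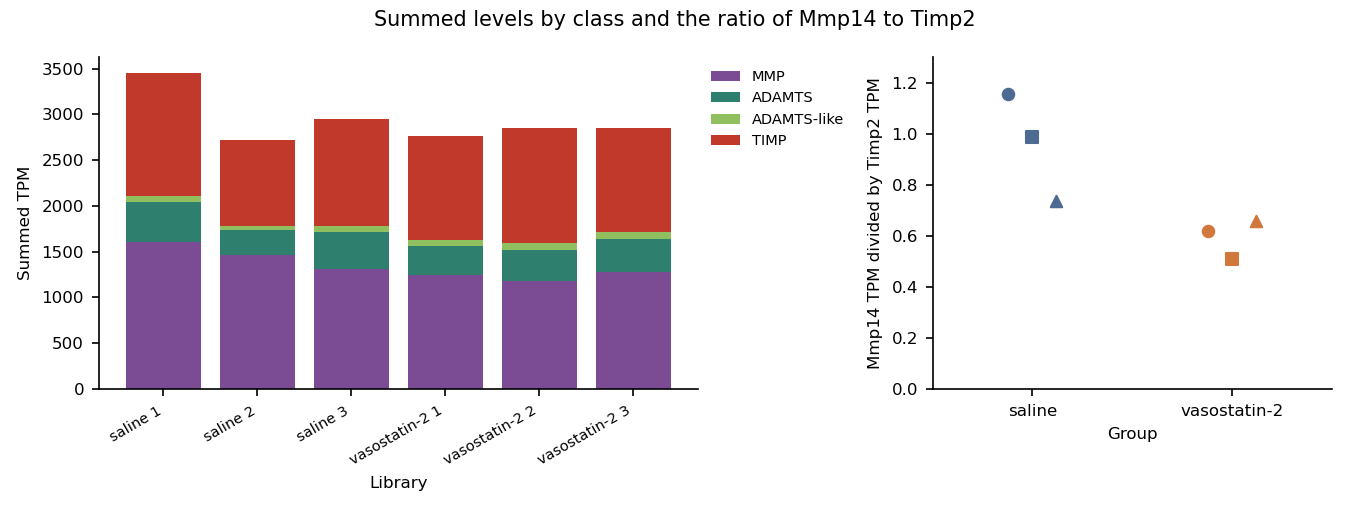
Left, TPM summed over MMPs, ADAMTS proteases, ADAMTS-like proteins and TIMPs in each library; right, Mmp14 TPM divided by Timp2 TPM (blue saline, orange vasostatin-2, symbol shape by replicate). The MMP part is 1313 TPM or more with saline and 1275 TPM or less with vasostatin-2, and the ratio is 0.735 or more against 0.657 or less. Both include Mmp14, whose groups did not overlap by themselves, and without Mmp14 the groups of the MMP part would overlap.

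The saline libraries varied more than the treated ones. In 38 of the 44 members (86.4%) the coefficient of variation of CPM was smaller with vasostatin-2, beside 65.8% of all genes tested. By CPM, saline replicate 2 was the lowest library for 18 members (40.9%, against 23.2% of all genes), among them Timp2, Timp3, Mmp2, Adamts1, Adamts2 and Adamts5. Saline replicate 1 was the highest library for 19 members (43.2%, against 21.4% of all genes). The fibroblast marker sum, made up mostly of Col1a1 and Col3a1, was 45510 CPM in saline replicate 1 and 24640 CPM in saline replicate 2 against 28560 to 35550 CPM in the others. Of its 8 genes, 2 (Col1a1 and Col3a1) were highest in saline replicate 1 and 6 were lowest in saline replicate 2, and 6 had a positive log2 fold change with vasostatin-2. The part of fibroblast content in these values was not tested.

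Other genes of matrix turnover were described from a list of 43, of which 41 were tested, with 2 higher and 3 lower at an unadjusted p of 0.05 (3.29% and 3.85% of all genes tested) and 0 past the adjusted threshold. Among 9 membrane ADAM proteases, Adam33 was at 12.03, 9.82 and 15.01 TPM with saline and at 20.3, 22.5 and 21.2 TPM with vasostatin-2, without overlap, as in 6.07% of all genes tested (log2 fold change 0.73, SE 0.15; unadjusted p = 0.00223, adjusted p = 0.458 by edgeR). Among 12 tested activators and other regulators, Plaur, the receptor that holds urokinase at the cell surface, was at 85.6, 69.6 and 77.0 TPM against 60.7, 65.7 and 64.8 TPM (log2 fold change −0.27, SE 0.074, adjusted p = 0.579 by edgeR). Among 20 matrix substrates, the basement membrane collagens Col4a1 and Col4a2 had log2 fold changes of −0.29 and −0.26, with adjusted p values of 0.681 and 0.684. Col4a1 was at 415, 406 and 456 TPM with saline and at 373, 315 and 351 TPM with vasostatin-2. The small proteoglycan Dcn was at 1232, 959 and 1554 TPM against 1701, 1801 and 1549 TPM (log2 fold change 0.45, SE 0.16, adjusted p = 0.681). Vcan, the versican that Adamts1, Adamts4, Adamts5 and Adamts9 cut, was at 137, 69.3 and 112 TPM against 80.0, 63.4 and 77.6 TPM, with overlapping groups (log2 fold change −0.53, SE 0.23, adjusted p = 0.71).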

How the data were processed

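Per the labels' protocols, mRNA was enriched from total RNA with oligo(dT) beads and sequenced on a BGISEQ instrument. Tools listed in the submitters' processing notes are HISAT2 2.1.0 and DESeq2 1.26.0, with the build GRCm38.p6; the counting tool and strandedness are not given in the sources used here. The deposited table holds the authors' estimated counts (65.6% of values whole) and TPM per library. It also has columns by the authors with log2 fold change, p-value and q-value, cited here by name of that table. The sign of its log2 values matched the group means in 99.6% of genes with a mean of at least 10 counts.

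Estimated counts were rounded, filtered with filterByExpr, scaled by TMM (factors 0.985 to 1.01) and tested in edgeR 4.0.16 (R 4.3.3) with robust quasi-likelihood and treatment as the only term. The biological coefficient of variation was 16.1%. CPM use the scaled library sizes, and 3 counts correspond to 0.149 to 0.155 CPM. DESeq2 1.42.0 and limma 3.58.1 were alternatives; figures used Python 3.11.15 with matplotlib 3.10.9. The test was checked on simulated counts. Libraries of a group differed by more than counting noise (chi-square per gene of 15.4 or more), so none was counted as a duplicate. P-values set the treatment difference against the variation between these 3 libraries per group, estimated with information shared across the genes tested.

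Members, roles, pathway and marker lists were chosen with earlier results of these data known. Values per library are given for the TIMPs, for up to 3 members of each class with the highest mean TPM of at least 1, for members past the adjusted threshold and for the 10 with the smallest p. In the deposited table the strand of 3 of 34 members differed from RefSeq, so its strands were not used. By whole gene span, introns included, 14 members overlap another gene there. This is an upper count, since overlapping spans need not share exonic bases. Where exonic bases are shared, their reads could not be separated. Some results on neighbouring genes are not reported here. T and B lymphocyte, mast and endothelial markers summed to 13.2 to 41.3, 73.9 to 175 and 1768 to 2130 CPM. Alternatives were other scalings, filters and tests, the replicate number as a block, and leaving out libraries.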

Additional observations from a re-analysis of the deposited data

How the results depend on the processing

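All 17 alternatives were compared for the 32 members given by library, and 16 of these kept their sign in each, among them Adamts4, Mmp15, Mmp14, Adamts9, Adamtsl4, Mmp9 and Timp2. The DESeq2 test called 106 genes and 2 members, Adamts4 and Mmp15, where edgeR called 0; the cause was not tested. Leaving out a library gave 0 to 2 genes called by edgeR, 0 members called, 1 to 4 members higher and 3 to 8 lower at an unadjusted p of 0.05, and a family median of −0.19 to 0.021. With 4 higher the library left out was saline replicate 1, and with 3 higher and 8 lower it was saline replicate 2, which also gave the 2 genes; without saline replicate 3, 2 were higher. Without both libraries numbered 3, 3 members were higher, and Mmp11 was at −0.037.

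Signs turned as follows, in log2 fold change. Mmp12 was at 0.94 with limma-voom, 0.47 with limma on log2(TPM + 1) and 0.52 with the replicate block, and Mmp23 at 0.0100, 0.016 and 0.015; with the block Adamts2 was at 0.0018. Leaving out each library in turn gave −0.38 to 0.17 for Adamts1, −0.55 to 0.20 for Adamts14, −0.19 to 0.12 for Adamts2, −0.14 to 0.47 for Adamts3, −0.044 to 0.22 for Adamts5, −0.0055 to 0.31 for Adamtsl1, −0.51 to 1.34 for Mmp12 and −0.57 to 0.039 for Mmp13. It gave −0.35 to 0.048 for Mmp2, −0.16 to 0.20 for Mmp23, −0.037 to 0.10 for Mmp24, −0.15 to 0.16 for Mmp28, −1.38 to 0.30 for Mmp8, −0.14 to 0.12 for Timp1 and −0.15 to 0.22 for Timp3. The cause was not tested, and none of these values passed the adjusted threshold.

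Libraries with the same number share only that number: their deviations from the group means correlated at −0.119, 0.0251 and 0.0273. With the replicate block edgeR called 0 genes, and 1 member was higher and 4 lower at an unadjusted p of 0.05, Mmp19 and Adamts12 in place of Mmp14 and Adamts9. Mmp7, Mmp10, Mmp20, Mmp21 and Adamts13 had too few counts to pass the low-count filter. They were not tested, so a difference can be neither stated nor denied.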
